A study of Mus musculus with 10 samples.

Results

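Laminins and integrins are the 2 families of genes through which cells build a basement membrane and hold on to it, and they were compared here across embryonic stem cells (ESCs), hepatocyte-like cells differentiated from them (HLCs) and hepatocytes taken from adult liver. Members were taken by gene symbol: laminin chains (Lama, Lamb and Lamc with a number), integrin alpha chains (Itga with a number or the letter v, l, m, x, e or d) and integrin beta chains (Itgb with a number) whose symbol stands alone on a transcript cluster of the array, which gave 34 of the 22180 genes tested (10 laminin chains, 16 alpha chains and 8 beta chains). The platelet chain Itga2b has another form of symbol and was counted as a platelet marker instead. Clusters that carry several symbols were not used, one of them shared by Itgb4 and one by Itga4. The study holds 10 arrays of mouse RNA: 4 of undifferentiated ESCs, 3 of HLCs and 3 of adult hepatocytes. Every sample's strain label gives the strain prefix C.FVB, the laboratory suffix FathJ and the transgene Tg(CAG-luc, GFP)L2G85Chco. The broadly active CAG promoter drives luciferase and a fluorescent protein in it, and the controls carry it too. All 10 also carry a label of a passage under 20, adult hepatocytes included. No label gives the age of the mice, the length of differentiation or whether cells were pooled, and nothing beyond the word biological in the replicate names says that replicates came from separate cultures or animals. P-values therefore measure the spread between these samples.

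A laminin is a cross-shaped protein of 1 alpha, 1 beta and 1 gamma chain, which assembles inside the cell and polymerises outside it into the sheet on which a basement membrane is built. An integrin is a receptor of 1 alpha and 1 beta chain, and the pairing decides which matrix protein it binds. The first basement membranes of the mouse embryo hold laminin with the alpha-1 chain, whereas the sinusoids of adult liver have little continuous basement membrane and hepatocytes there carry mainly the collagen and laminin receptor of the alpha-1 and beta-1 chains.

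Values are log2 expression values as deposited, and a level of 5.5 served as a working floor. It lies above the median of every array, background signal was not used here, and a fold that rests on a mean under it is taken as a rough figure. Levels of different genes were not compared with each other, because each gene is read by its own probes. Array medians ran from 4.91 to 5.07. Precision is limited by having only 3 or 4 arrays a group. The labels were set against marker genes of each cell type. Of 6 hepatocyte markers, all 6 were higher in adult hepatocytes than in ESCs, 2 were higher in HLCs than in ESCs (Ttr and Apoa1), and all 6 were lower in HLCs than in adult hepatocytes. Of 8 markers of stellate cells and fibroblasts, 5 rose in HLCs over ESCs and 0 fell. HLC replicate 3 was unlike the other two, with albumin (Alb) at 10.80 against 4.85 and 5.14 and the stem cell factor Nanog at 7.12 against 5.08 and 5.09, so counts are also given without it. Adult hepatocyte arrays carried most endothelial and macrophage markers above the other kinds. Against ESCs, 5 of 7 endothelial markers were higher and 1 lower (Pecam1), and 6 of 8 macrophage markers were higher and 1 lower (Cd68). In HLCs 5 of the endothelial and 6 of the macrophage markers were lower than in adult hepatocytes, and 0 were higher.

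In HLCs, 13 of 24 integrin genes and 2 of 10 laminin chains were higher than in ESCs. A difference counts as called where limma's adjusted p, taken over all genes, is under 0.05 and the log2 difference is at least 1. Rose and fell refer to called genes. Of the 34 genes 15 rose over ESCs, against 8.61% of all genes tested, and 1 fell, against 7.35% of all genes. The 15 were 2 of 10 laminin chains, 10 of 16 alpha chains and 3 of 8 beta chains. The median difference of the 34 genes was 0.97 on the log2 scale, beside -0.01 over all genes. Without HLC replicate 3 these counts were 16 and 0. In whole-cell RNA, fewer cells of a type and less RNA in each cell cannot be told apart.

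Against adult hepatocytes, 17 of the 34 genes were higher in HLCs (13.9% of all genes) and 1 was lower (9.12% of all genes), with a median difference of 1.07 beside -0.04. The 17 were 6 of 10 laminin chains, 8 of 16 alpha chains and 3 of 8 beta chains. Without HLC replicate 3 the counts were 16 and 1. Between adult hepatocytes and ESCs, 5 of 10 laminin chains were lower in adult hepatocytes and 0 higher, but of the 24 integrin genes 2 were higher and 1 was lower. Over all 34 genes 2 were higher (11.0% of all genes) and 6 lower (15.6% of all genes), with a median difference of 0.08 beside 0.05. The 3 comparisons share arrays, so their values are not independent of each other.

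**Figure D1:**
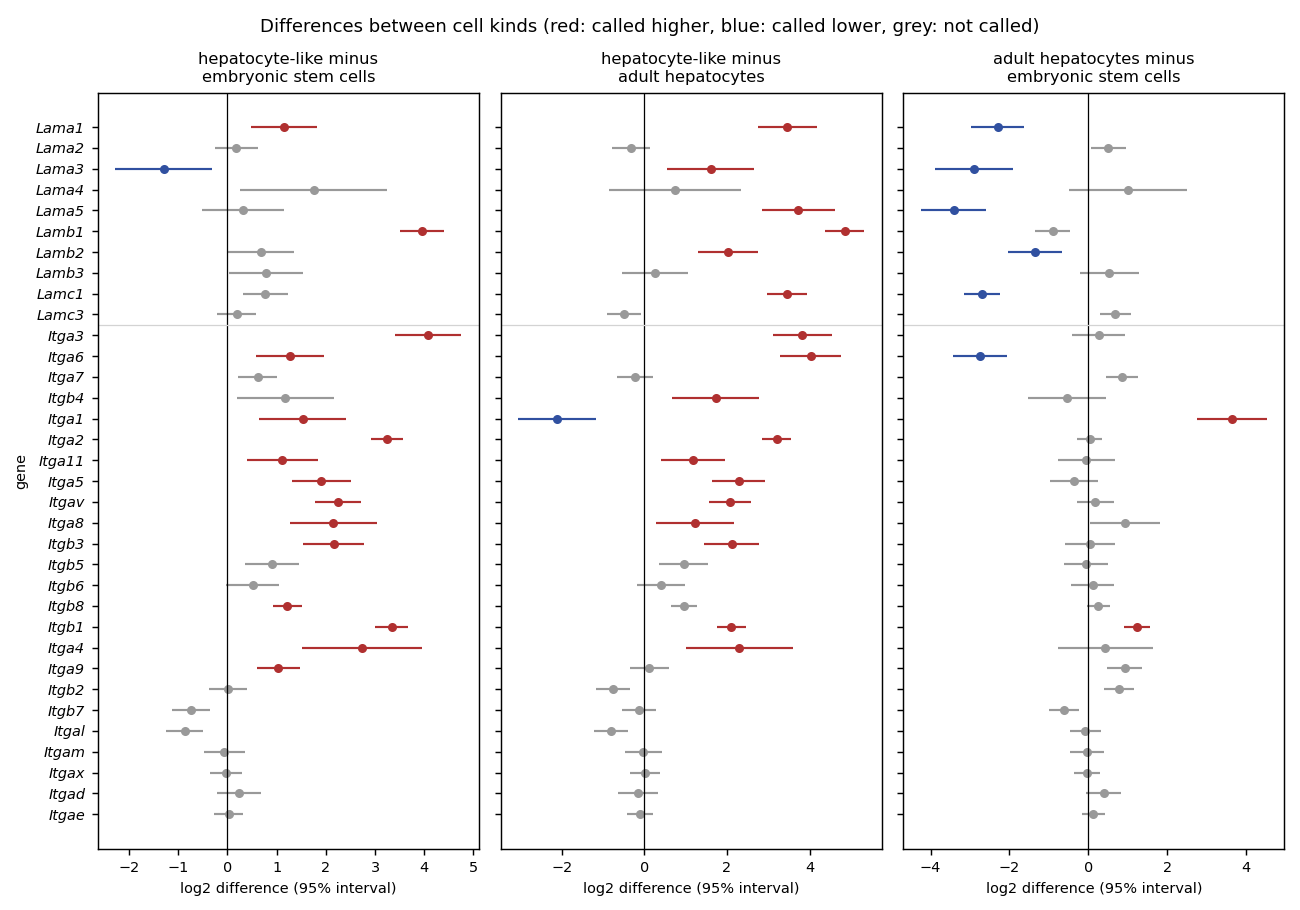
Log2 difference of each of the 34 genes (points) with its 95% interval from limma (bars) in the 3 comparisons, laminin chains above the grey line and integrins below it; red marks called higher, blue called lower and grey not called. Most called genes lie to the right of 0 in the first and second panels, 15 against ESCs and 17 against adult hepatocytes, and in the third panel the called laminin chains lie to the left.

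Among the laminin chains, the beta-1 chain had the largest differences of HLCs from both other kinds. Lamb1 encodes the beta chain of the common laminins. It read 10.72, 10.74 and 10.54 in HLCs, 6.62, 6.97, 6.26 and 7.02 in ESCs and 5.54, 5.81 and 6.10 in adult hepatocytes. The 3 groups did not overlap, and the HLC arrays lay within 0.20 of each other. Lamb1 rose by 3.95 ± 0.21 (log2 difference ± SE) over ESCs, a 15.4-fold difference (adjusted p = 4.55e-08), and was 28.8-fold higher than in adult hepatocytes (4.85 ± 0.22, adjusted p = 1.74e-09). Between adult hepatocytes and ESCs it differed by -0.90 ± 0.21, short of the minimum difference of 1, which it passed with the arrays centred on their medians, and by -1.04 without adult hepatocyte replicate 3 and -1.05 without ESC replicate 3. Parietal endoderm of the embryo makes much laminin of the alpha-1, beta-1 and gamma-1 chains. The mean of 8 parietal and visceral endoderm markers was 7.77 to 8.47 on HLC arrays, 6.90 to 6.98 on adult and 6.08 to 6.21 on ESC arrays, with 6 of 8 higher in HLCs than in ESCs and 5 higher and 1 lower than in adult hepatocytes. Their part in the levels of Lamb1, Lama1 and Lamc1 was not tested.

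The gamma-1 chain, which nearly all basement membrane laminins share, behaved otherwise. Lamc1 read 9.72, 10.27, 9.51 and 10.34 in ESCs, 10.88, 10.60 and 10.71 in HLCs and 7.16, 7.41 and 7.23 in adult hepatocytes. Both cultured kinds were far above adult hepatocytes, and the HLC arrays lay just above the ESCs. Lamc1 was lower in adult hepatocytes than in ESCs by 2.69 ± 0.21 (fell 6.47-fold, adjusted p = 2.86e-07) and 11.0-fold higher in HLCs than in adult hepatocytes (3.46 ± 0.22, adjusted p = 5.72e-08). The difference between HLCs and ESCs, 0.77 ± 0.21, was not called for its size (adjusted p = 0.0139, 95% interval 0.32 to 1.22). The beta-2 chain Lamb2, an alternative partner in the same trimers, read 7.84, 7.87 and 7.91 in HLCs, 6.34, 7.76, 6.96 and 7.72 in ESCs and 5.38, 6.10 and 6.04 in adult hepatocytes. Every adult array lay below every cultured one. Lamb2 in HLCs exceeded adult hepatocytes by 2.03 ± 0.33 (adjusted p = 3.24e-04), and it fell in adult hepatocytes against ESCs by 1.36 ± 0.31 (adjusted p = 0.00312), and it did not pass the test between the cultured kinds (0.68 ± 0.31, adjusted p = 0.135, 95% interval 0.00 to 1.36).

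The alpha chains give a laminin its receptor binding, and 3 of the 5 were lower in adult hepatocytes than in ESCs, beside 15.6% of all genes. Lama1, the chain of the earliest embryonic basement membranes, read 6.87, 8.09, 7.19 and 7.95 in ESCs, 8.05, 9.06 and 8.93 in HLCs and 5.24, 5.33 and 5.09 in adult hepatocytes. HLC replicate 1 fell inside the span of the ESC arrays. Lama1 rose by 1.16 ± 0.31 over ESCs (adjusted p = 0.0125), a call that was lost without HLC replicate 2 (0.97, adjusted p = 0.0621) and without ESC replicate 1 (0.94, adjusted p = 0.0322). It was 11.0-fold higher in HLCs than in adult hepatocytes (3.46 ± 0.33, adjusted p = 2.72e-06), where its mean of 5.22 lay under the floor. Lama5, the alpha chain of most mature epithelial and vascular basement membranes, read 7.86, 9.28, 7.97 and 9.33 in ESCs, 8.40, 9.55 and 8.82 in HLCs and 5.075, 5.003 and 5.4996 in adult hepatocytes. The cultured kinds overlapped and the adult arrays lay apart, under or at the floor. Lama5 fell by 3.42 ± 0.38 in adult hepatocytes against ESCs (adjusted p = 8.47e-06) and was higher in HLCs than in adult hepatocytes by 3.73 ± 0.41 (adjusted p = 1.01e-05). Its difference between HLCs and ESCs was 0.31 ± 0.38 (adjusted p = 0.629, 95% interval -0.52 to 1.15). In ESCs, replicates 2 and 4 were the higher pair for Lama1, Lama5, Lamb2 and Lamc1 alike. The split was not particular to these chains. Itga5 and Itgav showed it too, and for other members, Lama3 among them, replicates 2 and 4 were the lower pair. Over all clusters, ESC replicates 1 and 3 were each other's most alike array (r = 0.985), as were 2 and 4 (r = 0.981). Whether the 4 ESC arrays are independent was not tested.

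Lama3 and Lama4 varied widely within HLCs. Lama3 is the alpha chain of the laminin that anchors epithelia through hemidesmosomes. It read 8.60, 8.04, 9.02 and 8.31 in ESCs, 6.84, 8.62 and 6.12 in HLCs and 5.31, 5.83 and 5.63 in adult hepatocytes. HLC replicate 2 stood at the ESC level and the other two below it. Lama3 was the gene that fell against ESCs, by 1.30 ± 0.45 (adjusted p = 0.0481), but this call held in only 6 of 19 alternatives, with differences from -2.01 to -0.76 and adjusted p from 3.26e-04 to 0.214. It was lost without any 1 of 8 arrays: HLC replicate 1 (-1.12) or 3 (-0.76), ESC replicate 1 (-1.26), 3 (-1.12) or 4 (-1.36), or adult hepatocyte replicate 1, 2 or 3 (each -1.30, adjusted p = 0.0591, 0.0640 and 0.0676), and it was -2.01 without HLC replicate 2. In adult hepatocytes it was lower than in ESCs by 2.90 ± 0.45 (fell 7.48-fold, adjusted p = 1.54e-04). Against adult hepatocytes it was higher in HLCs by 1.60 ± 0.48 (adjusted p = 0.0197), which was not called without HLC replicate 2 (0.89), adult replicate 1 (1.47, adjusted p = 0.0645) or adult replicate 3 (1.62, adjusted p = 0.0510).

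Lama4, a chain of vascular and mesenchymal basement membranes, read 8.88, 5.66 and 4.71 in HLCs, 4.65, 4.80, 4.65 and 4.56 in ESCs and 5.76, 5.75 and 5.51 in adult hepatocytes. HLC replicate 1 was high and the other two far lower, and the difference from ESCs of 1.75 ± 0.69 was not called (adjusted p = 0.0785). It was 0.52 without HLC replicate 1 and 2.60 (adjusted p = 0.00677) without HLC replicate 3. Adult hepatocytes exceeded ESCs by 1.01 ± 0.69 with no overlap of the arrays but without a call (adjusted p = 0.279), and the wide spread of the HLC arrays enters that fit. Without HLC replicate 1 the same difference had an adjusted p = 0.00177.

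The remaining laminin chains, Lamb3, Lama2 and Lamc3, lay nearer the floor, and only Lama2 was under it in all 3 kinds. Lamb3, the beta chain that pairs with Lama3, had means of 5.14, 5.92 and 5.67 in ESCs, HLCs and adult hepatocytes, with HLC replicate 2 at 6.98 against 5.53 and 5.25. None of its 3 comparisons gave a call, but the difference of 0.78 from ESCs was 1.12 and past the threshold without HLC replicate 3 (adjusted p = 0.0323) and 0.25 without HLC replicate 2 (adjusted p = 0.544). Lama2, the muscle chain, had means of 4.33, 4.51 and 4.83, and the gamma chain Lamc3 had 4.93, 5.12 and 5.61, neither with a call.

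**Figure D2:**
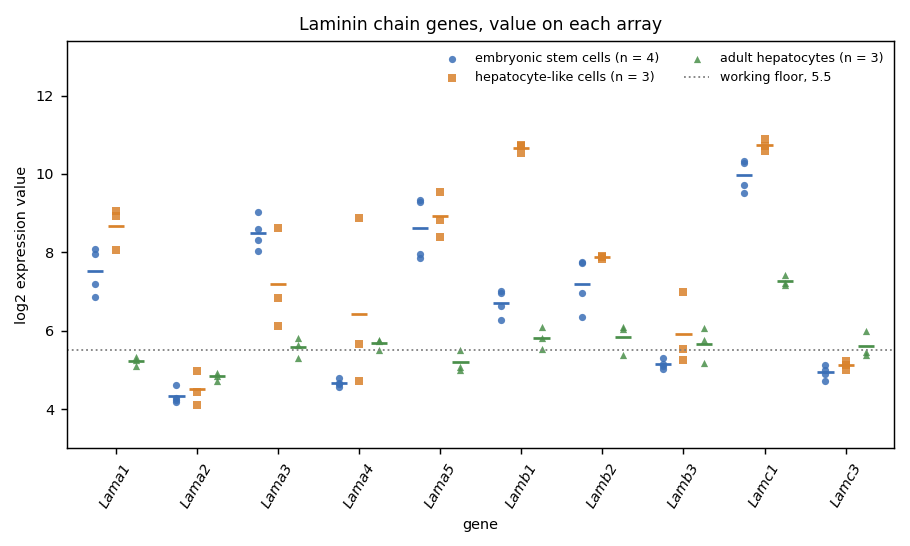
Log2 expression value of the 10 laminin chain genes on each array: circles are ESCs (n = 4), squares HLCs (n = 3), triangles adult hepatocytes (n = 3), short bars the group means and the dotted line the working floor of 5.5. Lamb1 stands out in the squares between 10.54 and 10.74, and Lama1, Lama5 and Lamc1 show both cultured kinds above the triangles.

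The stretches of DNA before 4 integrin genes are shown because they stand before genes of contrasting pattern: every HLC array lay above all other arrays for Itgb1, Itga2 and Itga5, and every adult hepatocyte array did for Itga1. RefSeq (GRCm38.p6) windows were matched for 21 of the 34 genes, 24 windows in all. Each sequence is the 250 bases before the transcript start, 5′ to 3′ on the strand of the gene, with matches to the searched motifs in capitals.

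Itgb1, chr8:128685404-128685653, plus strand: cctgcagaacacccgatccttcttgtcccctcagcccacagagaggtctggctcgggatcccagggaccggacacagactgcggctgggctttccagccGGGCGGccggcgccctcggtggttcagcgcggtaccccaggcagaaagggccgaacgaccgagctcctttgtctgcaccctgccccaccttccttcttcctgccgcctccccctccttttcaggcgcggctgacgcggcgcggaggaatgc
Itga2, chr13:114932101-114932350, minus strand: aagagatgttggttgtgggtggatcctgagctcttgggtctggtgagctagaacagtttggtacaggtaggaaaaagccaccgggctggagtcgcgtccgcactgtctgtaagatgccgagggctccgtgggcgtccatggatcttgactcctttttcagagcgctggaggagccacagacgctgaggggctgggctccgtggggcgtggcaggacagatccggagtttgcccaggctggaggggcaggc
Itga5, chr15:103366792-103367041, minus strand: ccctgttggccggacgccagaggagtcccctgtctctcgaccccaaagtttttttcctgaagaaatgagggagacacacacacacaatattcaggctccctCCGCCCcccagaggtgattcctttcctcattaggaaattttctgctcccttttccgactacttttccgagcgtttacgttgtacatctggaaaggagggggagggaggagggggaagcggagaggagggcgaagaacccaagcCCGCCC
Itga1, chr13:115101965-115102214, minus strand: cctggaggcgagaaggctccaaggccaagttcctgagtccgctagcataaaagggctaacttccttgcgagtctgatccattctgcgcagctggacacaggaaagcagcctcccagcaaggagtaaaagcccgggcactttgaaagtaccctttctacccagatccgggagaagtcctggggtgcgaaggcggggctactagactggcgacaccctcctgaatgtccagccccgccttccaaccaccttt

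Both strands were searched for the AP-1 site TGANTCA, the GC box GGGCGG, the Gata site AGATAA and the CArG box. Among these 4 stretches Itgb1 had 1 GC box and Itga5 had 2, on the opposite strand, and Itga2 and Itga1 had 0 matches of any of the 4 motifs. Over the 24 windows, the GC box occurred in 9 (8 genes), beside 32.7% of the 32851 windows of all genes, with 2 for Lamb1 and 4 for Lama5. An AP-1 site and a Gata site each occurred in 1 window, that of Itgax, beside 6.75% and 9.99% of all windows, and a CArG box in 2, of Lama2 and 1 window of Itgb6, beside 1.47%. A match describes the letters only, and the lack of one says nothing about the factor.

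The beta-1 chain is the shared partner of the laminin, collagen and fibronectin receptors. Its gene was called in all 3 comparisons, as were the integrin genes Itga1 and Itga6 and the laminin chains Lama1 and Lama3. Itgb1 read 8.28, 8.16, 8.23 and 8.05 in ESCs, 9.57, 9.20 and 9.47 in adult hepatocytes and 11.36, 11.59 and 11.60 in HLCs. No group overlapped another. It rose 10.1-fold in HLCs over ESCs (3.34 ± 0.15, adjusted p = 1.59e-08) and was 4.30-fold higher there than in adult hepatocytes (2.10 ± 0.16, adjusted p = 3.51e-07). In adult hepatocytes it was higher than in ESCs by 1.23 ± 0.15 (adjusted p = 1.99e-05).

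Itga3 and Itga6 encode the alpha chains of the chief laminin receptors of epithelia. Itga3 read 9.54, 11.18 and 10.29 in HLCs, 5.81, 6.58, 6.24 and 6.38 in ESCs and 6.44, 6.54 and 6.54 in adult hepatocytes. The HLC arrays lay far above both other kinds, which overlapped. It rose 17.0-fold over ESCs (4.08 ± 0.31, adjusted p = 9.07e-07) and was 14.2-fold higher than in adult hepatocytes (3.83 ± 0.33, adjusted p = 1.06e-06). Itga6 read 8.61, 8.26, 8.47 and 8.38 in ESCs, 8.66, 10.18 and 10.29 in HLCs and 5.79, 5.80 and 5.47 in adult hepatocytes. HLC replicate 1 was barely above the ESCs, and adult hepatocytes were far below both. Itga6 rose by 1.28 ± 0.32 over ESCs (adjusted p = 0.00823), but by 0.99 and so short of the minimum without HLC replicate 3. It fell in adult hepatocytes against ESCs by 2.75 ± 0.32 (adjusted p = 1.12e-05), the one alpha chain to do so, and was 16.3-fold higher in HLCs than in adult hepatocytes (adjusted p = 8.37e-07).

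Itgb4 encodes the beta chain that joins Itga6 in the hemidesmosome, the junction of epithelial cells with laminin. It read 7.27, 8.97 and 6.32 in HLCs, 6.21, 6.53, 6.22 and 6.40 in ESCs and 5.56, 5.58 and 6.24 in adult hepatocytes. Replicate 2 was again the highest array, and replicate 3 lay among the ESCs. Itgb4 was higher in HLCs than in adult hepatocytes by 1.72 ± 0.48 (adjusted p = 0.0131). Without HLC replicate 2 that difference was 1.0002. The difference from ESCs, 1.18 ± 0.45, was not called (adjusted p = 0.0718), and was 1.78 (adjusted p = 0.00377) without HLC replicate 3 but 0.45 (adjusted p = 0.302) without HLC replicate 2. Itga7, the laminin receptor chain best known from muscle, had means of 5.63, 6.25 and 6.48 in ESCs, HLCs and adult hepatocytes and no call, its largest difference being 0.84 ± 0.18 between adult hepatocytes and ESCs (adjusted p = 0.00218). The mean of 6 muscle markers was 5.26 to 6.36 on HLC arrays, 5.19 to 5.43 on adult and 5.18 to 5.39 on ESC arrays.

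The 3 collagen receptor genes all rose in HLCs over ESCs (8.61% of all genes), but against adult hepatocytes 2 were higher (13.9% of all genes) and Itga1 was lower (9.12%). The genes Itga1 and Itga2, both of whose products pair with the beta-1 chain, whose upstream stretches are printed above, are direct neighbours on the chromosome, with 0 annotated genes between them in RefSeq (GRCm38.p6). Itga2 read 7.95, 8.02 and 7.88 in HLCs, 4.68, 4.60, 4.88 and 4.69 in ESCs and 4.55, 4.71 and 4.96 in adult hepatocytes. Both other kinds were under the floor. It rose by 3.24 ± 0.15 over ESCs (9.44-fold, adjusted p = 1.90e-08) and exceeded adult hepatocytes by 3.21 ± 0.16 (9.25-fold, adjusted p = 4.75e-09), while adult hepatocytes and ESCs differed by 0.03 (95% interval -0.30 to 0.36).

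Itga1 was highest in adult hepatocytes, at 8.36, 8.04 and 8.08, against 7.42, 5.36 and 5.35 in HLCs and 4.82, 4.52, 4.15 and 4.56 in ESCs. Of the 34 genes it was the 1 called lower in HLCs than in adult liver cells, by 2.12 ± 0.43 (adjusted p = 0.00176), while Itgb2 and Itgal had smaller differences that way. It was also one of 2 that rose in adult hepatocytes over ESCs (3.65 ± 0.41, adjusted p = 7.98e-06), the other being Itgb1. The rise in HLCs over ESCs, 1.53 ± 0.41 (adjusted p = 0.0122), was not called without HLC replicate 1 (0.84, adjusted p = 0.00860). Itga1 is also made by endothelial and stellate cells. The mean of the 7 endothelial markers was 7.72 to 7.83 on adult arrays, 5.45 to 5.88 on HLC and 5.47 to 5.75 on ESC arrays. The stellate cell marker Lrat was at 7.77, 7.74 and 8.24 in adult hepatocytes and 3.97 to 4.66 on the other arrays. Of the 8-gene stellate and fibroblast list, Lrat was the 1 gene lower in HLCs than in adult hepatocytes and 6 were higher, and the list's mean was 7.92 to 9.94 on HLC, 6.01 to 6.10 on adult and 5.33 to 5.74 on ESC arrays. The part of these cells in the level of Itga1 was not tested. Itga11, a fibroblast collagen receptor, read 5.73, 5.45 and 7.24 in HLCs, 5.06, 5.18, 4.94 and 4.91 in ESCs and 4.96, 4.73 and 5.21 in adult hepatocytes. Its rise over ESCs of 1.12 ± 0.33 (adjusted p = 0.0231) came down to 0.57 without HLC replicate 3 and was lost as well without ESC replicate 3 (1.09, adjusted p = 0.0529) or 4 (1.08, adjusted p = 0.0536). Its difference from adult hepatocytes, 1.17 ± 0.36 (adjusted p = 0.0204), was 0.63 without HLC replicate 3 and 1.05 (adjusted p = 0.0765) without adult replicate 2.

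Of 7 chains of receptors that read the short motif Arg-Gly-Asp in fibronectin, vitronectin and related ligands, 5 rose in HLCs over ESCs, beside 8.61% of all genes, and 4 were higher there than in adult hepatocytes, beside 13.9%. Between adult hepatocytes and ESCs limma called 0 of the 7, beside 11.0% of all genes higher and 15.6% lower, and 1 had an unadjusted p under 0.05. Itga5, the fibronectin receptor chain, read 10.24, 10.06 and 10.21 in HLCs, 7.89, 8.71, 7.55 and 8.88 in ESCs and 8.06, 7.86 and 7.75 in adult hepatocytes. It rose by 1.91 ± 0.28 over ESCs (adjusted p = 2.03e-04) and was higher than in adult hepatocytes by 2.28 ± 0.30 (adjusted p = 4.69e-05). The other two kinds overlapped for Itga5, as they did for Itgav and Itgb3. Itgav, the alpha chain shared by several of these receptors, read 11.25, 11.19 and 10.43 in HLCs, 8.56, 8.91, 8.43 and 8.93 in ESCs and 8.81, 9.02 and 8.82 in adult hepatocytes. It rose by 2.25 ± 0.21 (adjusted p = 6.62e-06) and exceeded adult hepatocytes by 2.08 ± 0.23 (adjusted p = 1.10e-05). A second cluster annotated to Itgav lay between 2.89 and 3.81 on all 10 arrays, and with both clusters averaged the difference from adult hepatocytes was 0.88 and not called. Itgb3, its partner in the vitronectin receptor, read 8.76, 7.65 and 7.37 in HLCs, 5.71, 6.04, 5.45 and 5.88 in ESCs and 5.55, 6.07 and 5.82 in adult hepatocytes. It rose by 2.16 ± 0.29 (adjusted p = 1.02e-04) and exceeded adult hepatocytes by 2.12 ± 0.31 (adjusted p = 1.20e-04). Platelets and megakaryocytes also carry Itgb3, and the mean of 4 measured markers of them was 5.080 to 5.502 on HLC arrays, 4.92 to 5.34 on adult and 4.37 to 4.57 on ESC arrays. Of the 4, 1 was called higher in HLCs than in ESCs and 0 lower. Ppbp was at 5.97, 6.59 and 8.94 in HLCs and 4.39 to 4.69 in ESCs, whereas Pf4 was at 2.73 to 2.96 in HLCs and 3.00 to 3.15 in ESCs. The part of these cells in the level of Itgb3 was not tested.

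The other members of this group changed less or less evenly. Itga8, known from kidney and smooth muscle, read 8.48, 6.17 and 6.71 in HLCs, 4.94, 5.29, 4.81 and 4.84 in ESCs and 5.94, 6.06 and 5.68 in adult hepatocytes. It rose by 2.15 ± 0.41 over ESCs (adjusted p = 0.00137). The call against adult hepatocytes, at 1.23 ± 0.43 (adjusted p = 0.0423), held in 8 of 19 alternatives and was lost without any one ESC array (adjusted p of 0.0511 to 0.0555) or adult array (adjusted p of 0.0743 to 0.124), and the difference was 0.55 without HLC replicate 1. Itgb8, a chain that activates latent TGF-beta, read 5.73, 5.499 and 5.64 in HLCs, 4.45, 4.46, 4.33 and 4.38 in ESCs and 4.64, 4.68 and 4.63 in adult hepatocytes. It rose by 1.22 ± 0.13 over ESCs (adjusted p = 2.30e-05) from a level under the floor, and its difference of 0.97 ± 0.14 from adult hepatocytes fell short of the minimum, though it was 1.03 without HLC replicate 2. Itgb5, another partner of Itgav, was not called, with means of 9.41, 10.31 and 9.35 in ESCs, HLCs and adult hepatocytes. It differed by 0.90 ± 0.25 from ESCs and 0.95 ± 0.27 from adult hepatocytes, and passed the minimum against ESCs without HLC replicate 1 (1.04) or ESC replicate 2 (1.03) or 4 (1.003), and against adult hepatocytes without HLC replicate 1 (1.10) or 2 (1.04) or adult replicate 2 (1.05). Itgb6, an epithelial chain, had means of 3.90, 4.41 and 4.01 and no call.

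Itga4, a receptor of VCAM-1 and fibronectin found on blood and mesenchymal cells, read 8.39, 5.65 and 5.28 in HLCs, 3.95, 3.94, 3.28 and 3.64 in ESCs and 3.84, 4.10 and 4.46 in adult hepatocytes. Replicate 1 was far above the other two, and all 3 lay above both other kinds. It rose by 2.73 ± 0.56 over ESCs (adjusted p = 0.00235) and exceeded adult hepatocytes by 2.30 ± 0.60 (adjusted p = 0.00831), and without HLC replicate 1 these were 1.76 and 1.33, both still called. Itga9, a receptor of tenascin-C and osteopontin, read 6.94, 6.10 and 6.62 in HLCs, 5.54, 5.31, 5.60 and 5.62 in ESCs and 6.18, 6.60 and 6.53 in adult hepatocytes. It rose by 1.04 ± 0.20 over ESCs (adjusted p = 0.00174), a difference of 0.84 without HLC replicate 1 and 0.97 without ESC replicate 2, and also under 1 with the arrays centred on their medians (0.96) or quantile normalized again (0.93). HLCs and adult hepatocytes overlapped for Itga9 (0.12 ± 0.22, 95% interval -0.35 to 0.59). Adult hepatocytes exceeded ESCs by 0.92 ± 0.20, and by 1.05 and so past the minimum without adult replicate 1.

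The 7 integrin genes taken here as typical of leukocytes gave 0 calls in limma over 21 differences (3 comparisons). Of the 21, 6 had a p under 0.05, adjusted or not. Calls either way over all genes were 16% for HLCs against ESCs, 23% against adult hepatocytes and 26.6% for adult hepatocytes against ESCs. With no minimum difference, limma's adjusted p was under 0.05 in 14.5% of all genes higher and 14.3% lower in the first of these. The second gave 21.5% and 14.6%, and the third 18.3% and 23.2%. The 7 genes are Itgal, Itgam, Itgax, Itgad and Itgae with their partners Itgb2 and Itgb7. Itga4, found on blood cells as well, was not counted among them and was called higher in HLCs against both other kinds. Their single values ran from 3.76 to 6.40 in ESCs, 4.13 to 5.48 in HLCs and 4.24 to 6.16 in adult hepatocytes. At an adjusted p under 0.05 with a smaller difference, Itgb2 in adult hepatocytes exceeded ESCs by 0.76 ± 0.18 (adjusted p = 0.00308) and HLCs, which lay below it by 0.76 ± 0.19 (adjusted p = 0.00629). The macrophage list had means of 6.05 to 6.28 on adult arrays, 4.80 to 4.92 on HLC and 4.80 to 4.95 on ESC arrays, and its part in the level of Itgb2 was not tested. Itgal, the alpha chain of LFA-1, was in HLCs below ESCs by 0.87 ± 0.18 (adjusted p = 0.00220) and below adult hepatocytes by 0.80 ± 0.19 (adjusted p = 0.00469). Itgb7 lay below ESCs by 0.75 ± 0.18 in HLCs (adjusted p = 0.00620) and by 0.61 ± 0.18 in adult hepatocytes (adjusted p = 0.0132). The mean of 6 measured lymphocyte markers was 4.06 to 4.33 on HLC, 4.32 to 4.53 on adult and 4.65 to 5.27 on ESC arrays, with a part that was not tested. Only Cd3e (6.76 to 7.76) and Cd3g (5.055 to 7.94) stood higher in ESCs than in both other kinds. Cd8a, Ms4a1, Ncr1 and Klrb1c lay between 3.26 and 4.95 on all arrays. Itgam, Itgax, Itgad and Itgae had means under 5 in all 3 kinds.

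**Figure D3:**
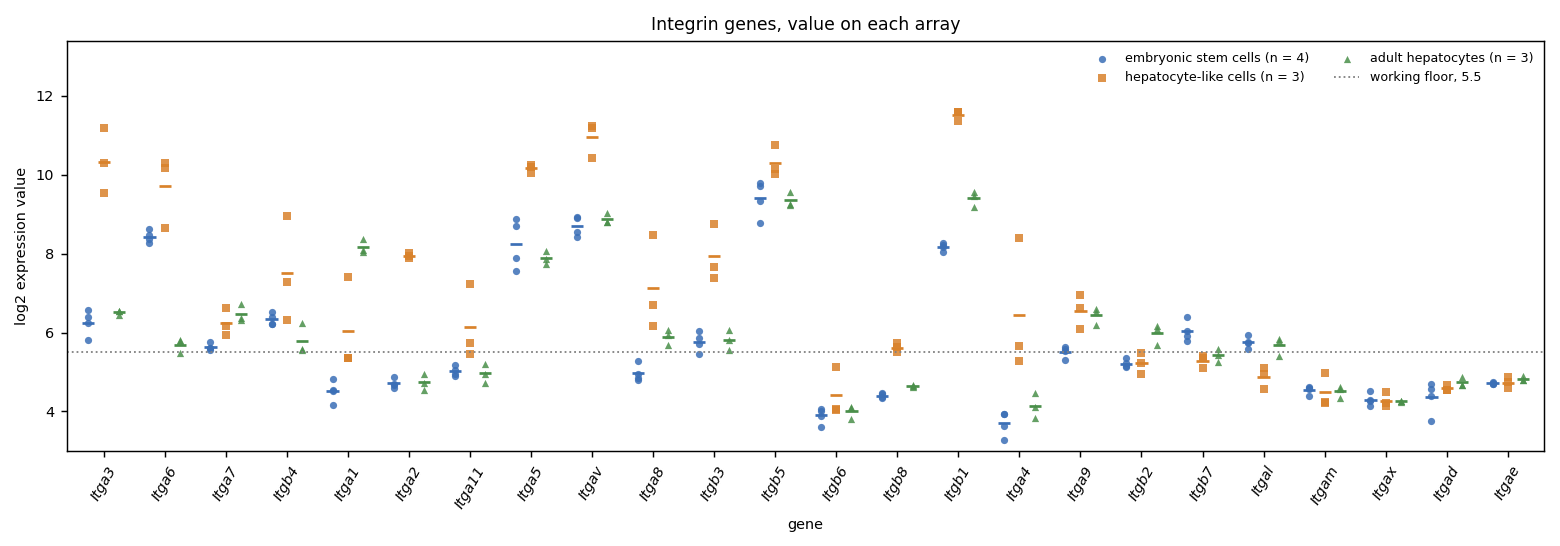
Log2 expression value of the 24 integrin genes on each array, ordered by the ligands their receptors bind: circles are ESCs (n = 4), squares HLCs (n = 3), triangles adult hepatocytes (n = 3), short bars the group means and the dotted line the working floor of 5.5. Itgb1, Itga3, Itga2 and Itga5 show the squares clear of both other kinds, Itga1 shows the triangles on top, and the leukocyte genes at the right lie near or under the line.

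The median SD among the 3 HLC arrays was 0.43 over the 34 genes and 0.24 over all genes, whereas it was 0.20 and 0.21 among ESCs and 0.19 and 0.22 among adult hepatocytes. In 14 of the 34 genes the 3 HLC arrays spanned more than 1 on the log2 scale, which was so for 11.9% of all genes. Replicate 1 was highest in 5 of the 14 (Lama4, Itga4, Itga8, Itga1 and Itgb3), replicate 2 in 7 (Itgb4, Lama3, Lamb3, Itga3, Lama5, Itgb6 and Lama1) and replicate 3 in 2 (Itga11 and Itga6). The mean of the 8 stellate and fibroblast markers was 9.94 in replicate 1, 8.96 in replicate 2 and 7.92 in replicate 3. Among these markers Col3a1 was at 11.27, 9.06 and 7.62, in the same order as Lama4 and Itga4, as were Col1a1, Col1a2 and Postn. The rest of the list had other orders: Acta2, Des and Lrat were highest in replicate 2, and Pdgfrb was lowest there (6.95). The mean of the 4 measured cholangiocyte markers lay between 7.86 and 8.83 with the top in replicate 2, the highest array also for Lama3, Lamb3 and Itgb4. These orders over 3 arrays were noticed in the data and are a description, and the part of other cell types in them was not tested.

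**Figure D4:**
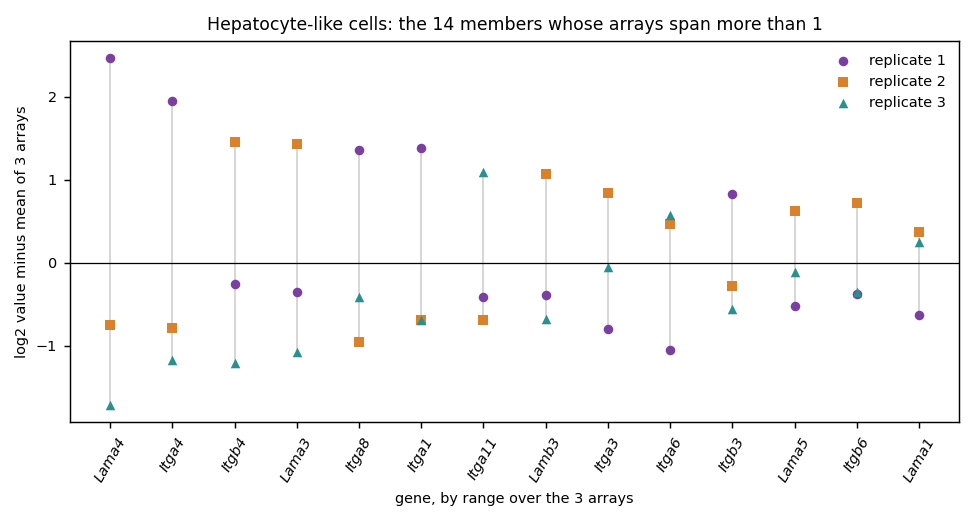
Log2 value minus the mean of the 3 arrays in HLCs for the 14 genes whose arrays span more than 1, ordered by that range; circles are replicate 1, squares replicate 2 and triangles replicate 3. Circles lie on top for Lama4, Itga4, Itga8 and Itga1, and squares for Itgb4, Lama3, Lamb3 and Itga3.

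Genes that work with laminins and integrins were compared in the same fit, beside the same shares of all genes as above. Of 16 further basement membrane genes 8 rose and 1 fell in HLCs against ESCs, 10 were higher and 1 lower than in adult hepatocytes, and 2 were higher and 6 lower in adult hepatocytes than in ESCs. Nid1 and Nid2 encode the nidogens that link laminin to collagen IV, and they parted ways. Nid1 rose by 1.78 ± 0.18 over ESCs, and Nid2 fell by 2.34 ± 0.25. In adult hepatocytes both were lower than in ESCs, Nid2 by far (-5.14 ± 0.25, against -2.73 ± 0.18 for Nid1). Col4a1, a collagen IV chain, exceeded ESCs by 4.60 ± 0.26 and adult hepatocytes by 3.96 ± 0.28 in HLCs, and the peroxidase that cross-links collagen IV, Pxdn, by 4.63 ± 0.18 and 3.89 ± 0.19.

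Other integrin ligands were split, with 8 of 18 higher and 3 lower in HLCs than in ESCs, and 8 higher and 4 lower than in adult hepatocytes. Between adult hepatocytes and ESCs 5 were higher and 5 lower. The largest differences were those of plasma ligands that the liver secretes, the fibrinogen chains Fgb (8.67 ± 0.27), Fgg (8.64 ± 0.24) and Fga (7.90 ± 0.37) and vitronectin, Vtn (7.77 ± 0.21), each in adult hepatocytes over ESCs. In HLCs Vtn was lower than in adult hepatocytes by 7.12 ± 0.22 and did not pass the call against ESCs (0.64 ± 0.21). The fibrinogen chains were also lower in HLCs than in adult hepatocytes. Against ESCs, Fgb rose by 3.18 ± 0.27 and Fgg by 1.53 ± 0.24 in HLCs, and Fga was not called (0.67 ± 0.37). Larger rises in HLCs over ESCs were those of Postn (6.88 ± 0.38), Thbs1 (6.54 ± 0.31), Tnc (6.07 ± 0.58) and Npnt (4.00 ± 0.38), all from ESC means under the floor. Each was also higher in HLCs than in adult hepatocytes.

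Of 16 other laminin receptors and membrane partners of laminins or integrins, not all of which bind laminin, 7 rose and 0 fell in HLCs against ESCs. Against adult hepatocytes 7 were higher and 4 lower in HLCs. Adult hepatocytes had 6 higher and 3 lower than ESCs. Bcam, a receptor for the laminin alpha-5 chain, had means of 9.15 in ESCs, 8.57 in HLCs and 5.17 in adult hepatocytes, lower in the last than in ESCs (-3.98 ± 0.285). As with Lama5, the cultured kinds did not differ by a call (-0.59 ± 0.285, adjusted p = 0.159). The dystrophin complex gene Sgce exceeded adult hepatocytes by 3.64 ± 0.30 and ESCs by 2.64 ± 0.28 in HLCs. The caveolar gene Cav1 did so by 2.55 ± 0.35 and 2.84 ± 0.33. The syndecan Sdc4 was lower in HLCs than in adult hepatocytes by 2.86 ± 0.30.

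The inner adhesion complex, which ties integrin tails to actin, rose in 11 of 25 and fell in 0 in HLCs against ESCs, with 12 higher and 1 lower than in adult hepatocytes, and 4 higher and 5 lower in adult hepatocytes than in ESCs. The ILK partner Parva rose by 3.96 ± 0.28 over ESCs and differed by 0.61 ± 0.30 from adult hepatocytes, without a call. Nexn, an actin-binding protein of muscle and adhesions, exceeded ESCs by 3.47 ± 0.22 and adult hepatocytes by 3.50 ± 0.24, and the alpha-actinin Actn1 exceeded them by 1.25 ± 0.18 and 3.41 ± 0.20. The filamin-binding Fblim1 was lower in adult hepatocytes than in ESCs (-3.46 ± 0.16). Of 6 hemidesmosome genes, Itga6 and Itgb4 among them, 2 rose over ESCs, Itga6 and the linker plectin, Plec (2.17 ± 0.23), and 4 were higher than in adult hepatocytes, with the linker Dst at 2.13 ± 0.25.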

How the data were processed

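Per the labels' protocols, RNA was isolated with TRIzol, purified on columns and labelled with biotin by Affymetrix's protocol. The authors deposited log2 expression values for 41345 transcript clusters on each of the 10 arrays, and these were taken unchanged. Tools named in the submitters' processing notes, with no roles, are Transcriptome Analysis Console, RMA, R 3.3.1 and oligo 1.38.0, and the genome build is not given in the sources used here. The log2 scale was read from the range, 1.27 to 13.58. No scanner file was analysed here and no probe was tested against its background.

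Groups follow the sample titles. In the platform annotation 23521 clusters have 1 symbol, 1814 have several and 16010 have none. Per symbol the cluster with the highest mean over the 10 arrays was kept (22180 genes). Of the 34 members, 33 had 1 cluster and Itgav had 2, and all 34 symbols matched RefSeq by Entrez identifier. limma 3.58.1 in R 4.3.3 (lmFit, eBayes, 2-sided, Benjamini-Hochberg over all genes) was fitted once to all 10 arrays with group means (7 residual degrees of freedom, prior 5.34). Genes were named by this rule: every member, and from each partner list up to 4 genes in order of their largest called difference. Postn, Thbs1, Tnc and Npnt were named beyond it, as the ligands with the largest rises in HLCs over ESCs. Members, lists and motifs were chosen with earlier results of these data known. The replicate numbers were checked for pairing: the correlation of same-numbered arrays' deviations from their group means was -0.19 to 0.14. Differently numbered arrays were not set beside these, so the check cannot tell whether same-numbered arrays were prepared together.

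On simulated data 86% to 90% of 100 genes shifted by 1.5 and 99% to 100% of 100 shifted by 3 were recovered among 22180, with 1 to 6 false calls. Alternatives were other normalization and centring, a filter on dim genes, cluster choice, variance models, array weights, only 2 groups, the replicate block, each array left out and other thresholds. Figures were drawn with matplotlib 3.10.9 in Python 3.11.15.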

Additional observations from a re-analysis of the deposited data

How the results depend on the processing

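Single genes were recomputed under up to 19 alternatives for each of 102 differences (34 genes in 3 comparisons). Of 1920 values obtained, 1855 kept their side of the call, 45 lost it, 20 gained it and 0 changed direction in a called value. A filter on dim genes removed genes under 5.5 in all 3 kinds, so those genes have no value there. Of 42 called differences 10 lost the call in at least 1 alternative. The count of genes that fell in HLCs against ESCs, 1 (Lama3), became 0 with quantile normalization again, every cluster in the fit, only the 2 groups compared, array weights, the replicate block and an adjusted p under 0.01, and 3 with no minimum difference. With no minimum difference 3 genes were lower in HLCs than in adult hepatocytes and 6 were higher in adult hepatocytes than in ESCs, in place of 1 and 2. The other counts stayed within 1.5 times.

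With each array left out in turn, HLCs against ESCs gave 14 to 16 higher and 0 to 1 lower, HLCs against adult hepatocytes 15 to 18 higher and 1 lower, and adult hepatocytes against ESCs 2 to 3 higher and 6 to 7 lower. No label says that the replicate numbers pair samples across groups. With the replicate number as a block the counts were 16 and 0, 17 and 1, and 2 and 6, with Itgb5 gained (1.003, adjusted p = 0.0129) and Lama3 lost (-1.36, adjusted p = 0.0786) against ESCs. Quantile normalization again gave 13 and 0, 16 and 1, and 3 and 6. Signal over background could not be tested, so levels near 5.5 limit the folds of dim genes.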
